A study of Arabidopsis thaliana with 24 samples.

Results

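Seeds at stage 7 were compared with seeds at stage 6, both taken out of their siliques, in Arabidopsis thaliana. The comparison used the 3 arrays labelled seeds stage 7 and the 3 arrays labelled seeds stage 6, 6 of the 24 arrays of the series, chosen by their tissue label alone. All samples came from the accession Col-0, with no mutant, transgene or treatment named, and each gave total RNA that was labelled with biotin and hybridized to an ATH1 array. The remaining groups, also of 3 arrays each, are whole siliques that still hold their seeds (stages 3, 4 and 5) and later isolated seeds (stages 8, 9 and 10). Stage numbers come with neither ages in days nor embryo forms in the labels, and growth conditions are stated for stage 3 only. Whether the 3 arrays of a stage stand for separate plants is not stated, so p-values cover the spread among the samples as hybridized, and that spread may be technical only.

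An Arabidopsis seed holds an embryo, the endosperm that surrounds it and a seed coat of maternal tissue. During maturation the embryo fills with storage proteins and with oil packed in oleosin-coated bodies, the coat deposits flavonoids, mucilage and lipid polyesters, and late embryogenesis abundant proteins build up before the seed dries. Whole seeds were measured, so fewer cells of a type and less RNA per cell cannot be told apart.

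Markers of the silique wall were low in both groups. ECS1, which is used here as a marker of the silique wall, averaged 3.80 in seeds stage 7 and 10.5 in seeds stage 6, against 1558 in whole siliques stage 5, and the 3 tested silique wall markers together summed to 40.6 to 47.4 in seeds stage 7 and 54.3 to 71.3 in seeds stage 6. ALC, another of them, had a log2 change of -0.29 ± 0.10 (SE; adjusted p = 0.031), and 0 of these 3 markers, of the 3 pollen markers and of the 2 guard cell markers changed by 2-fold in limma. The 7 added to each signal before taking logs shrinks changes between signals as low as those of ECS1. For such markers the 2-fold count cannot tell whether the stages differ. The correlation over probe sets, which are no independent points, between arrays of a stage was 0.987 to 0.988 in stage 7 and 0.988 to 0.989 in stage 6, and between arrays of different stages it was 0.958 to 0.959. The 25S ribosomal RNA control split both groups, with signals of 55.3, 506 and 1928 in stage 7 and of 2074, 213 and 68.8 in stage 6 (exact permutation test, two-sided p = 1), and the counts below were also made without the highest array of each group. Other controls did separate the stages: the ratio of the 3′ to the 5′ ubiquitin control was 2.29, 1.88 and 2.095 in stage 7 and 2.42, 2.31 and 2.31 in stage 6, the 3′ GAPDH control was 1157, 1142 and 1152 in stage 7 and 1424, 1343 and 1272 in stage 6, and the median signal of an array was 37.6 in stage 7 and 39.1 to 39.7 in stage 6. For each of these the exact permutation test gave p = 0.1, the smallest that 3 arrays against 3 allow, and their part in the results was not tested. The 3′ to 5′ ratios of GAPDH (exact permutation p = 0.9) and actin (exact permutation p = 0.7) overlapped between the stages.

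The step to stage 7 was small for most genes and large for few. Of 16967 probe sets tested, 411 (2.42%) were higher and 180 (1.06%) were lower in seeds stage 7 by at least 2-fold at a Benjamini-Hochberg adjusted p under 0.05 in limma, 591 (3.48%) in all. Such probe sets are called higher or lower here. The median log2 change over all tested probe sets was -0.05. By the adjusted p alone 4151 probe sets (24.5%) passed, 1954 higher and 2197 lower, so the excess of rises lies among the large changes. The arrays of the stages did not overlap in 44.8% of the tested probe sets, 18.4% with stage 7 higher and 26.4% with stage 7 lower. At 4-fold and more 80 had risen and 4 had fallen, and at 16-fold and more 3 had risen and 0 had fallen. Without the 2 arrays with the highest 25S control the counts were 433 higher and 214 lower.

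**Figure D1:**
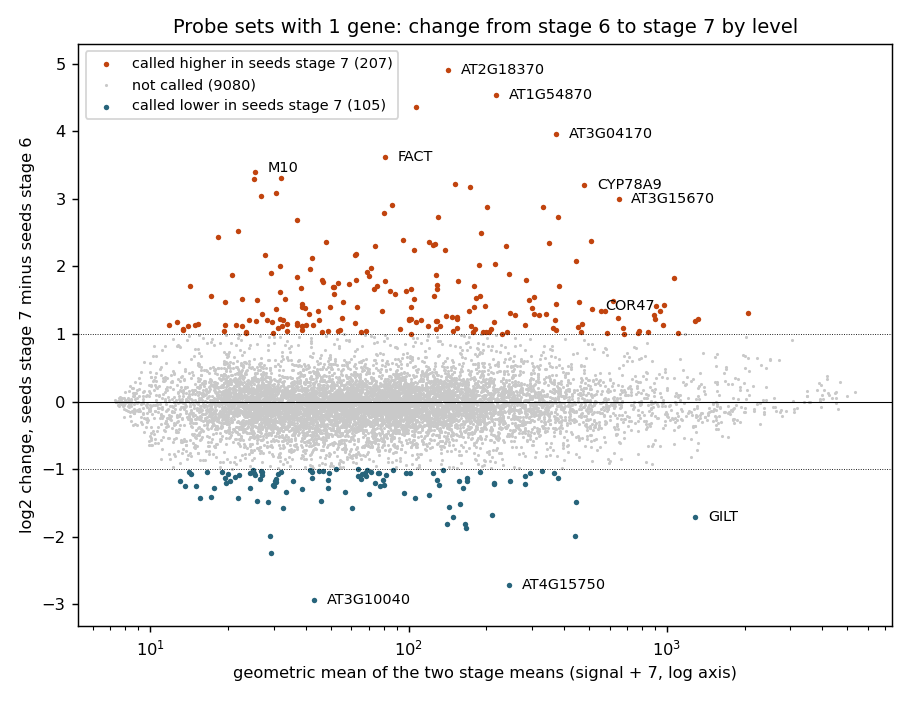
Change between the stages for each tested probe set with 1 gene: the vertical axis is the log2 change of signal + 7, seeds stage 7 minus seeds stage 6, and the horizontal log axis the geometric mean of the stage means with 7 added. Dotted lines mark 2-fold; the 207 called higher reach a log2 change of 4.90 and the 105 called lower reach -2.93.

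Exactly 1 gene is annotated for 312 of the 591 called probe sets, 207 higher and 105 lower, and only these are named. Signals are on a linear scale in arbitrary units, and changes are of log2(signal + 7), which understates the change of dim genes. In 203 of the 411 higher and 67 of the 180 lower probe sets the mean of the lower group was still at least 50.

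The largest rise was that of a lipid-transfer protein gene. AT2G18370, of the lipid-transfer protein family, gave signals of 767, 760 and 782 in seeds stage 7 and of 16.4, 20.8 and 19.95 in seeds stage 6. AT3G58550, of the same family, gave 463, 466 and 505 in stage 7 and 15.2, 17.2 and 16.96 in stage 6. FACT, which makes fatty alcohol esters of caffeic acid, gave 277, 274 and 280 in stage 7 and 17.5, 14.0 and 16.8 in stage 6. In each of the 3 the stages lay far apart, and the arrays of a stage lay close together. The rule that picked the largest changes takes only genes whose stages do not overlap. The log2 changes were 4.90 ± 0.14 (SE, n = 3 arrays a stage; adjusted p = 1.1e-18) for AT2G18370, 4.37 ± 0.11 (adjusted p = 1.1e-19) for AT3G58550 and 3.62 ± 0.12 (adjusted p = 2.1e-17) for FACT. These 3 genes had not yet reached their highest level: at stage 8 the mean of AT2G18370 was 1850, that of AT3G58550 was 1828 and that of FACT was 1389, and at stage 9 the means were lower than at stage 8, at 1067, 928 and 797.

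Both short-chain dehydrogenase genes among the 12 largest rises were on their way to far higher signals. AT1G54870 gave 1025, 1034 and 1083 in seeds stage 7 and 35.6, 37.7 and 41.9 in seeds stage 6, a log2 change of 4.54 ± 0.11 (SE; adjusted p = 1.1e-19). AT3G05260 gave 476, 415 and 475 in stage 7 and 40.8, 41.2 and 45.4 in stage 6, a log2 change of 3.22 ± 0.12 (adjusted p = 9.6e-17). Their means in seeds stage 10 were 8810 for AT1G54870 and 8426 for AT3G05260.

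A further group of rises began from signals near the bottom of the array. M10, a late embryogenesis gene, gave 79.2, 66.3 and 80.7 in seeds stage 7 and no more than 0.940 in seeds stage 6 (log2 change 3.40 ± 0.08, adjusted p = 1.3e-19). LCR67, a plant defensin of seeds, averaged 72.0 ± 2.46 (SD, n = 3) in stage 7 and 1.09 ± 1.07 in stage 6, and BGLU19, a beta-glucosidase, 70.2 ± 14.8 in stage 7 and 2.29 ± 0.731 in stage 6. The neighbouring genes AT1G14930 and AT1G14940, relatives of the major latex proteins, averaged 93.2 ± 6.35 and 83.1 ± 19.5 in stage 7, against 3.35 ± 2.48 and 3.44 ± 1.14 in stage 6. Cross-hybridization between this pair was not tested. At stage 7 all 5 were still far below their later levels: in seeds stage 10 their means were 5801 for M10, 4165 for LCR67, 6122 for BGLU19, 3796 for AT1G14930 and 4403 for AT1G14940. No detection calls come with the deposited values, so whether the stage 6 signals of these 5 genes differ from background is not known, and the size of their fold depends on the 7 added to each signal.

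Other rises did not go on to stage 8. AT3G04170, a germin-like protein gene, gave 1545, 1484 and 1372 in seeds stage 7 and 85.8, 80.1 and 96.6 in seeds stage 6, a log2 change of 3.97 ± 0.17 (SE; adjusted p = 2.2e-15). CYP78A9, a cytochrome P450 gene known to promote fruit and seed growth, gave 1495, 1455 and 1377 in stage 7 and 142, 162 and 147 in stage 6, a log2 change of 3.20 ± 0.12 (adjusted p = 1.8e-16). AT4G33980 averaged 506 ± 13.6 in stage 7 and 50.7 ± 10.8 in stage 6, and AT2G47200 averaged 540 ± 52.0 in stage 7 and 67.3 ± 5.11 in stage 6. At stage 8 none of the 4 was higher still: their means there were 838 for AT3G04170, 1042 for CYP78A9, 342 for AT4G33980 and 262 for AT2G47200. AT3G60730, of the pectin methylesterase family, averaged 892 ± 57.9 in stage 7 and 115 ± 3.42 in stage 6, and differed from these 4 with a mean of 1743 at stage 8.

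**Figure D2:**
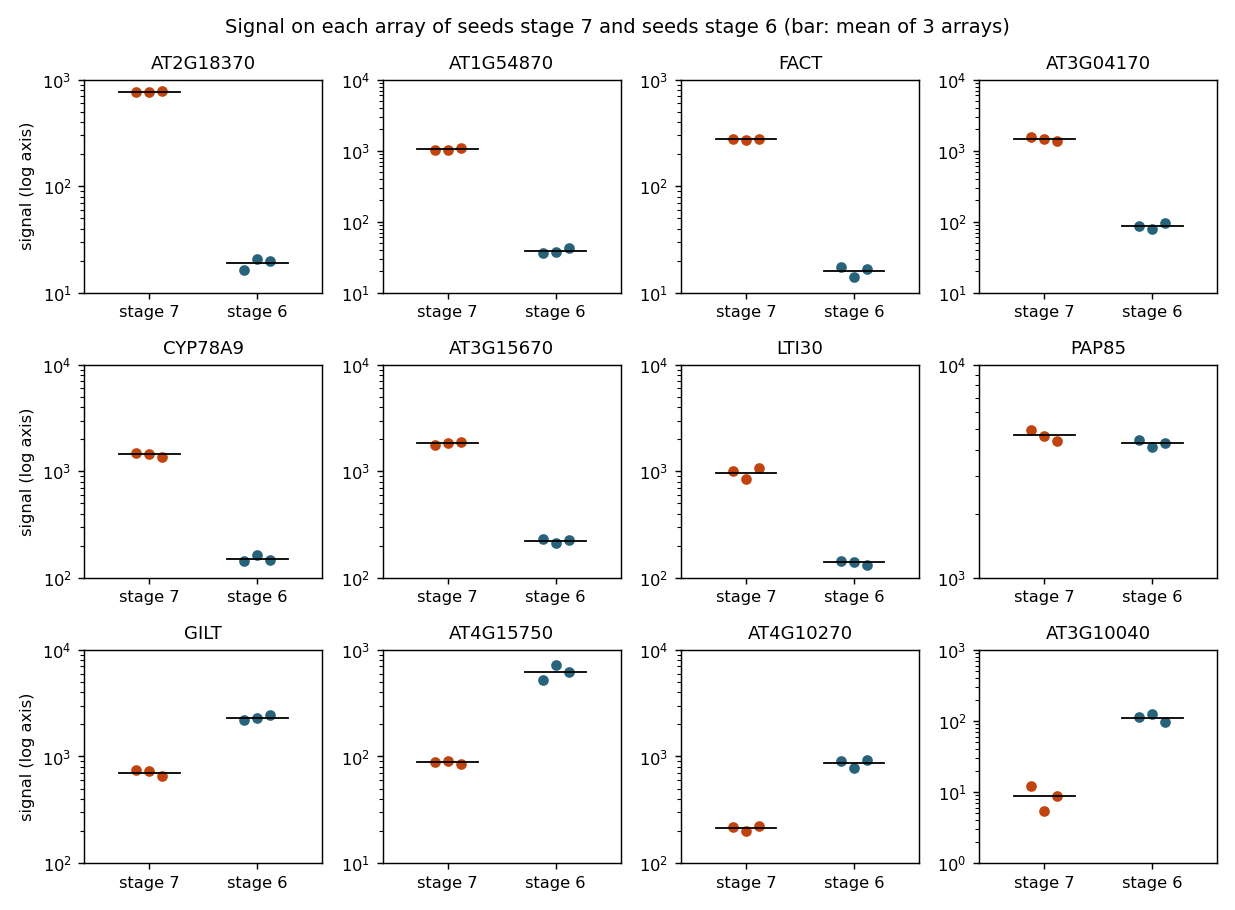
Signal on a log axis on each of the 3 arrays of seeds stage 7 (left in each panel) and of seeds stage 6 (right) for 12 genes, with a bar at the mean. The arrays of the stages do not overlap for 11 of the genes, such as AT3G10040 with 5.34 to 12.02 in stage 7 and 95.9 to 127 in stage 6, and they overlap for the storage protein gene PAP85. The largest changes were picked among probe sets without overlap, so this count is no separate result. Of all tested probe sets 44.8% do not overlap.

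Most late embryogenesis abundant genes tested rose, while the few tested genes of storage proteins did not pass the test. These proteins are hydrophilic, and many protect membranes and enzymes when water is lost. Of 19 tested genes of the family, dehydrins included, 12 were called higher and 0 lower (63.2%, against 3.48% of all probe sets), with a median log2 change of 1.22 against -0.05 for all tested probe sets. The list was written with the family's rise in later seeds known, so its direction is no independent evidence.

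AT3G15670 gave 1769, 1836 and 1900 in seeds stage 7 and 231, 211 and 225 in seeds stage 6, with no overlap and a log2 change of 3.01 ± 0.11 (SE; adjusted p = 1.5e-16). LTI30, a dehydrin induced by cold and abscisic acid, gave 1006, 841 and 1064 in stage 7 and 144, 141 and 133 in stage 6, a log2 change of 2.73 ± 0.08 (adjusted p = 1.8e-18). AT2G42560 gave 275, 214 and 201 in stage 7 and 29.2, 27.6 and 17.1 in stage 6, a log2 change of 2.92 ± 0.19 (adjusted p = 7.6e-12). The other rises of the family were smaller, from 1.13 ± 0.09 for AT5G44310 to 2.01 ± 0.18 for AT3G53040, and took in LEA4-5 (1.71 ± 0.14), LEA18 (1.67 ± 0.15) and AtLEA4-1 (1.22 ± 0.12). AT3G02480 missed the fold at 0.96 ± 0.10 and the dehydrin LEA at 0.69 ± 0.09, both with an adjusted p under 0.05. M17 averaged 14.6 in stage 7 and 15.7 in stage 6 and had a log2 change of -0.06 ± 0.14 (adjusted p = 0.81).

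The 5 tested seed storage protein genes, all of the cupin family, had log2 changes of 0.04 to 0.26, and in limma 0 passed at 2-fold or by the adjusted p and 1 was higher at an unadjusted p under 0.05. PAP85, a vicilin-like protein gene, gave 4951, 4656 and 4408 in seeds stage 7 and 4429, 4101 and 4293 in seeds stage 6, so that its stages overlap (log2 change 0.13 ± 0.10, adjusted p = 0.40). AT1G03890 averaged 0.24 ± 0.11 on the log2 scale above stage 6 (adjusted p = 0.13), though its arrays did not overlap. The 3 oil body genes tested, of 10 listed, were divided. The oleosin gene AT2G25890 rose, with 994, 1029 and 1050 in stage 7 and 349, 384 and 349 in stage 6 (log2 change 1.49 ± 0.13, adjusted p = 1.2e-09), while the oleosin genes AT3G01570 (0.14 ± 0.19, adjusted p = 0.66) and OLEO3 (-0.02 ± 0.07, adjusted p = 0.88) did not pass. Of 21 listed transcription factors of seed maturation only 2 were tested, the bZIP factors BZIP53 and EEL. They had log2 changes of 0.32 ± 0.09 (adjusted p = 0.0081) and 0.30 ± 0.13 (adjusted p = 0.10), and neither reached 2-fold.

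**Figure D3:**
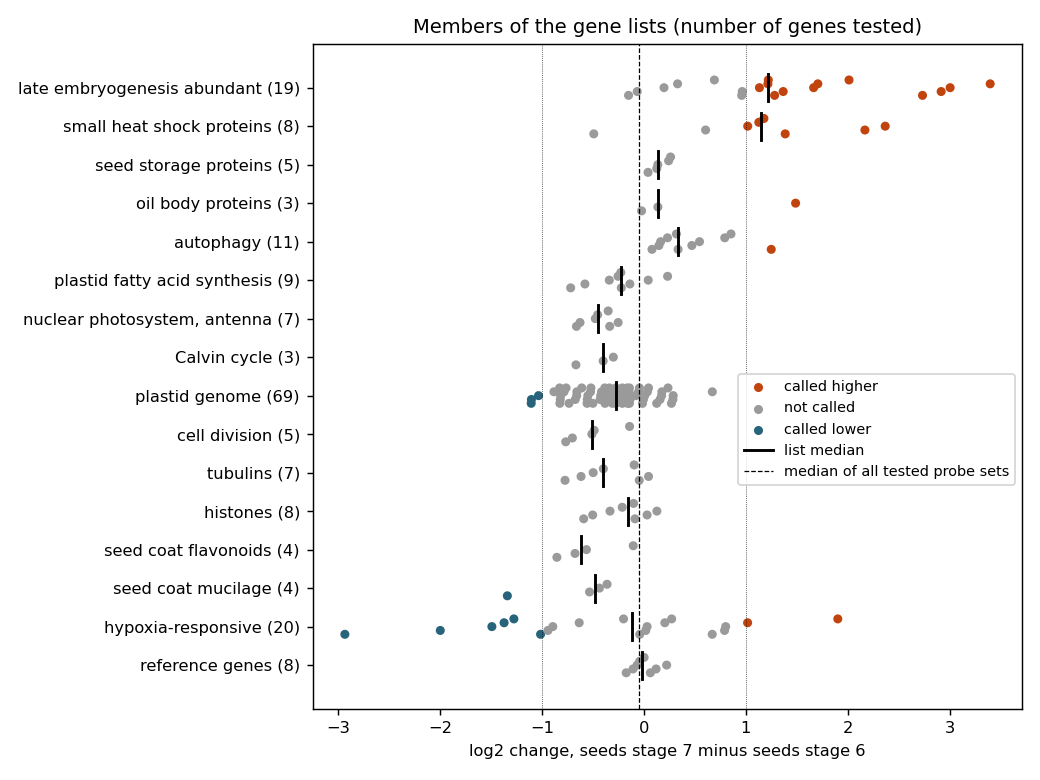
Log2 change of every tested member of 16 gene lists, seeds stage 7 minus seeds stage 6, with the list's median as a thick bar, the median of all tested probe sets (-0.05) dashed and 2-fold dotted. Late embryogenesis abundant genes have a median of 1.22 and seed storage protein genes one of 0.14, and the medians of the photosynthesis, division and seed coat lists lie left of the dashed line.

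Small heat shock proteins, chaperones that accumulate in maturing seeds of many plants, were looked at after 2 of them had been seen among the rises. Of 8 tested genes 6 were called higher and 0 lower (75%, against 3.48% of all probe sets), with a median log2 change of 1.15. AT1G54050 gave 280, 228 and 292 in seeds stage 7 and 43.5, 45.1 and 48.7 in seeds stage 6, a log2 change of 2.37 ± 0.10 (SE; adjusted p = 4.8e-15). AT1G53540 gave 48.7, 50.0 and 55.1 in stage 7 and 6.21, 9.89 and 2.72 in stage 6 (2.17 ± 0.20, adjusted p = 5.1e-09). The other 4 called genes had changes of 1.02 to 1.39 and stage 7 means of 35.5 to 56.7, and with 28 added to each signal in place of 7 only 2 of the 8 kept a 2-fold change.

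Autophagy genes, which serve the recycling of cell contents in the vacuole, all had a positive change. Of 11 tested, 7 were higher by the adjusted p, against 11.5% of all tested probe sets. Of these 7, 1 reached 2-fold and was called (9.09% of the list, against 3.48% of all probe sets). ATG8H, of the ubiquitin-like ATG8 proteins, gave 230, 214 and 218 in seeds stage 7 and 90.6, 95.2 and 80.6 in seeds stage 6, a log2 change of 1.25 ± 0.07 (SE; adjusted p = 1.2e-13). The other 10 had changes of 0.08 to 0.86, such as ATG8E at 0.86 ± 0.10 (adjusted p = 3.2e-07), and the median of the 11 was 0.34.

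Among germin-like protein genes, a list also made after AT3G04170 had been seen, 2 of 8 tested were called higher and 0 lower (25%, against 3.48% of all probe sets). The second was AT3G04150, with 234, 197 and 231 in seeds stage 7 and 41.8, 40.5 and 40.9 in seeds stage 6 (log2 change 2.24 ± 0.15, SE; adjusted p = 1.0e-11), and AT3G04200 had 0.85 ± 0.11. These 3 loci lie near each other by their numbers, so cross-hybridization between near copies was not tested and their separate sizes are uncertain. Of 3355 pairs of neighbouring genes with both tested, 6 had both members called, where 311 of 9277 genes were called with 1 probe set each. Whether calls cluster along the chromosomes was not tested. In 5 of the 6 pairs both were higher, such as AT1G14930 with AT1G14940 and the cold-regulated COR15B (1.40 ± 0.23) with COR15A (1.05 ± 0.30). Cross-hybridization within these pairs was not tested either.

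The largest falls were of other kinds. AT3G10040, a trihelix transcription factor gene of the low-oxygen response, gave 12.02, 5.34 and 8.73 in seeds stage 7 and 112, 127 and 95.9 in seeds stage 6, a log2 change of -2.93 ± 0.28 (SE; adjusted p = 8.9e-09). AT4G15750, of the family of invertase and pectin methylesterase inhibitors, gave 89.2, 91.4 and 84.2 in stage 7 and 528, 726 and 624 in stage 6, a log2 change of -2.72 ± 0.11 (adjusted p = 1.1e-15). GILT, a thiol reductase gene, gave 741, 724 and 653 in stage 7 and 2220, 2278 and 2437 in stage 6, a log2 change of -1.70 ± 0.09 (adjusted p = 1.1e-13). The stages of these genes did not overlap, which the rule that picked the largest changes requires. The stage 7 signals of AT3G10040 are near the bottom of the array, so that the size of its change depends on the 7 added to each signal.

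EXO, which is linked with brassinosteroid-promoted growth, fell by 1.81 on the log2 scale, with a mean of 81.4 ± 7.82 in seeds stage 7 and of 302 ± 20.8 in seeds stage 6. AT1G50650, of the stigma-specific STIG1 family, averaged 75.2 ± 6.12 in stage 7 and 260 ± 1.43 in stage 6, and its mean at stage 8 was 5.66. AT1G56100, of the same inhibitor family as AT4G15750, averaged 67.5 ± 3.79 in stage 7 and 258 ± 34.7 in stage 6. AT4G12890, of the thiol reductase family of GILT, averaged 28.2 ± 6.37 in stage 7 and 97.4 ± 8.44 in stage 6. AT2G27080 (-1.88 ± 0.13) and AT5G11070 (-1.68 ± 0.12) fell as well. AT5G52500 and AT1G59930 fell to means of 6.78 and 7.49 in stage 7, against 55.5 and 50.8 in stage 6, and for these the stage 7 level is near the bottom of the array.

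Genes of the response to low oxygen, a list made after AT3G10040 and other members had been seen among the falls, moved both ways. Of 20 tested genes 6 were called lower and 2 higher (40%, against 3.48% of all probe sets), and the median log2 change was -0.12. AT4G10270, of the wound-responsive family, gave 216, 200 and 221 in seeds stage 7 and 909, 771 and 933 in seeds stage 6 (-1.997 ± 0.09, SE; adjusted p = 4.0e-15). AT1G33055 averaged 257 ± 18.9 in stage 7 and 735 ± 30.0 in stage 6, and the calmodulin-like gene CML38 fell by 1.27 on the log2 scale. AT1G19530 rose, with 50.0, 50.7 and 48.4 in stage 7 and 7.00, 6.96 and 10.8 in stage 6 (1.90 ± 0.11, adjusted p = 6.5e-13), and PDC2, a pyruvate decarboxylase of ethanol fermentation, had 0.80 ± 0.10 without reaching 2-fold.

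No photosystem, antenna or Calvin cycle gene tested changed by 2-fold in limma. All 7 nuclear photosystem and antenna genes had negative changes, with a median of -0.45, and 6 passed the adjusted p. LHCB4.2, an antenna protein of photosystem II, gave 640, 703 and 645 in seeds stage 7 and 1096, 989 and 1072 in seeds stage 6 (-0.66 ± 0.07, SE; adjusted p = 1.6e-07). All 3 Calvin cycle genes passed the adjusted p too, from PRK, phosphoribulokinase, at -0.30 ± 0.09 to RCA, rubisco activase, at -0.67 ± 0.10. The 26 plastid-encoded photosystem and cytochrome genes had a median of -0.16, with 10 positive changes, and 8 were lower and 0 higher by the adjusted p. By the adjusted p alone 12.9% of all tested probe sets were lower.

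Of the 69 plastid genome genes tested 57 had negative changes, with a median log2 change of -0.28, and 3 (4.35%, against 3.48% of all probe sets) were called lower and 0 higher. The share called was near that of all probe sets. By the adjusted p alone 26 of the 69 were lower and 0 higher, where 12.9% of all tested probe sets were lower. The called genes were ndhF (-1.10 ± 0.34, SE; adjusted p = 0.019), a subunit of the plastid NADH dehydrogenase, ycf3 (-1.10 ± 0.17, adjusted p = 2.0e-05), an assembly factor of photosystem I, and rps18 (-1.03 ± 0.14, adjusted p = 3.9e-06), a plastid ribosomal protein. All 3 calls were lost without array A of stage 6, with changes of -1.08 for ndhF, -0.98 for ycf3 and -0.98 for rps18, that of ndhF also without array A or B of stage 7 or C of stage 6, and that of rps18 also without array C of stage 6. Without both arrays with a high 25S control the calls of ndhF (-1.21) and ycf3 (-0.95) were lost and that of rps18 held. The 14 mitochondrial genome genes had a median of -0.06 and 0 calls in limma, with 1 higher and 2 lower at an unadjusted p under 0.05.

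The medians of the cell division, tubulin, histone and seed coat lists were all below that of all tested probe sets. The 5 cell division genes tested, of 41 listed, lay at -0.77 to -0.14, with 0 of them at 2-fold and 2 below stage 6 by the adjusted p in limma. PRL, a replication licensing factor, gave 61.0, 60.1 and 56.9 in seeds stage 7 and 113, 111 and 93.7 in seeds stage 6 (-0.77 ± 0.14, SE; adjusted p = 0.00016). AUR1, the Aurora kinase, had -0.70 ± 0.18 (adjusted p = 0.0044). The 7 tubulins had a median of -0.40, with 1 positive change, and the 8 histones one of -0.16, with 2 positive changes. Tubulins and histones each had 3 members below stage 6 by the adjusted p. By the same measure 12.9% of all tested probe sets were lower, the share to set beside the counts of these lists.

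In the seed coat list of flavonoid genes 3 of 4 were lower by the adjusted p, against 12.9% of all tested probe sets, and 0 reached 2-fold. BAN, the anthocyanidin reductase of tannin synthesis, gave 412, 430 and 451 in seeds stage 7 and 782, 779 and 791 in seeds stage 6, without overlap (-0.85 ± 0.15, SE; adjusted p = 0.00013). DFR, dihydroflavonol reductase, had -0.68 ± 0.09. All 4 mucilage genes were lower by the adjusted p, against the same 12.9% of all tested probe sets. The peroxidase gene AT3G50990, needed for mucilage release, was the 1 called (25% of the list, against 3.48% of all probe sets). It gave 17.8, 30.1 and 39.1 in stage 7 and 91.1, 73.3 and 80.4 in stage 6 (-1.34 ± 0.25, adjusted p = 0.00020), though its change was -0.96 with 28 added to each signal. The endosperm list had 2 tested members, AT4G36590 and MPC, with signals of 5.38 to 12.004 and of 6.06 to 10.3 in stage 7 and of 7.25 to 11.1 and 8.18 to 15.9 in stage 6, and neither passed in limma, also at an unadjusted p under 0.05.

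Plastid fatty acid synthesis, which supplies the oil, had 0 of 9 genes called in limma and a median of -0.23. By the adjusted p alone 3 were lower, against 12.9% of all tested probe sets. At an unadjusted p under 0.05 6 were lower and 1 was higher. The largest change was that of AT4G13050, an acyl-ACP thioesterase gene, with 163, 170 and 156 in seeds stage 7 and 273, 288 and 256 in seeds stage 6 (-0.72 ± 0.24, SE; adjusted p = 0.033). GPDHC1, a glycerol-3-phosphate dehydrogenase (0.36 ± 0.08), and PGM, the phosphoglycerate mutase gene AT1G78050 (0.64 ± 0.17), were higher by the adjusted p and under 2-fold. In the starch list DPE1, the disproportionating enzyme, had the largest change (-0.57 ± 0.22, adjusted p = 0.062). Of the gibberellin receptors GID1A had 0.27 ± 0.10 (adjusted p = 0.049), and of the auxin synthesis and embryo patterning genes YUC4 (0.39 ± 0.20, adjusted p = 0.17) and PHV (-0.43 ± 0.16, adjusted p = 0.058) had the largest changes and did not pass. The sugar exporters SWEET11 (0.34 ± 0.07, adjusted p = 0.00048) and SAG29 (0.26 ± 0.10, adjusted p = 0.077) stayed under 2-fold, as did the 15 tested SWEET genes as a whole. The 8 reference genes lay at -0.17 to 0.22 and 0 passed in limma (1 higher and 1 lower at an unadjusted p under 0.05), but they were first picked for stability on data that took in the present arrays.

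In most of the other gene families tested 1 gene or none was called, where 3.48% of all tested probe sets were called. The auxin repressor family gave IAA34 (1.57 ± 0.24, SE) and the MADS-box family AGL67 (1.56 ± 0.16), linked with seed dormancy, with 227, 232 and 162 in seeds stage 7 and 75.8, 76.4 and 46.2 in seeds stage 6. Of 10 RALF-like peptide genes RALFL18 was called higher (1.38 ± 0.24), and of 10 cytochrome P450 genes CYP78A9 and CYP71B37 (1.23 ± 0.19). Of 7 xyloglucan endotransglucosylase genes XTH16 was called lower, and averaged 20.6 ± 1.42 in stage 7 and 69.2 ± 3.51 in stage 6 (-1.47 ± 0.20), and of 19 trichome birefringence-like genes TBL45 was called lower (-1.05 ± 0.23). The serine carboxypeptidase-like gene scpl20 (-1.14 ± 0.08), the glycosyltransferase gene UGT88A1 (-1.06 ± 0.08) and the subtilase gene SBT4.13 (-1.05 ± 0.29) were the only calls among 22, 36 and 5 tested members of their families. No gene of the bHLH, bZIP, WRKY, expansin, tetraspanin or glutathione transferase lists was called in limma; at an unadjusted p under 0.05 10 of these genes were higher and 9 lower, and with 1 added to each signal in place of 7 WRKY6 was called higher (1.88). With 28 added to each signal the changes of IAA34, RALFL18, TBL45, UGT88A1 and SBT4.13 stayed under 2-fold. SBT4.13 also lost its call in limma with 1 added to each signal (-1.15, adjusted p = 0.15). The same held without both arrays with a high 25S control (-1.05, adjusted p = 0.06).

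The step to stage 7 was then set against the next step, from seeds stage 7 to seeds stage 8, in 1 contrast of the same fit. Over all tested probe sets the median absolute log2 change was 0.20 in the step to stage 7 and 0.45 in the step to stage 8. The contrast, the first change minus the second, was called for 2965 probe sets (17.5%), 1622 (9.56%) positive and 1343 (7.92%) negative. The 2 steps share the stage 7 arrays with opposite signs, so that a deviation of those arrays enters both.

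COR47, a dehydrin, was called higher at stage 7 and was lower again at stage 8. Its signals were 807, 845 and 806 in seeds stage 7 and 312, 303 and 325 in seeds stage 6, a log2 change of 1.37 ± 0.07 (SE), and its mean was 94.9 in seeds stage 8, so that the step to stage 8 had a change of -3.02. AT4G30650, of a family of small membrane proteins induced by cold and salt, gave 390, 388 and 364 in stage 7 and 142, 148 and 160 in stage 6 (1.30 ± 0.25) and averaged 20.1 in stage 8. The differences between the steps were 4.39 ± 0.12 (adjusted p = 1.2e-18) for COR47 and 5.18 ± 0.43 (adjusted p = 7.4e-10) for AT4G30650. Both genes stood highest at stage 7 among the 5 seed stages.

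Several of the falls were followed by a return at stage 8. AT4G15750 had means of 626 in seeds stage 6, 88.3 in stage 7, 1154 in stage 8 and 47.0 in stage 9, with a difference between the steps of -6.31 ± 0.19 (SE; adjusted p = 8.8e-18). GILT stood at 2311 in stage 6, 706 in stage 7, 1838 in stage 8 and 30.0 in stage 9 (difference -3.07 ± 0.15, adjusted p = 9.3e-14). AT3G10040 had means of 112 in stage 6, 8.70 in stage 7, 91.8 in stage 8 and 7.37 in stage 9 (difference -5.59 ± 0.48, adjusted p = 1.4e-09), and AT4G24110, of the low-oxygen list, of 106 in stage 6, 36.6 in stage 7, 675 in stage 8 and 255 in stage 9 (difference -5.34 ± 0.21, adjusted p = 1.1e-15). The difference of AT3G10040 rests on stage 7 signals near the bottom of the array, so its size depends on the 7 added to each signal. In AT1G50650, whose mean was lower again at stage 8, the difference was 1.03 ± 0.40 (adjusted p = 0.046).

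**Figure D4:**
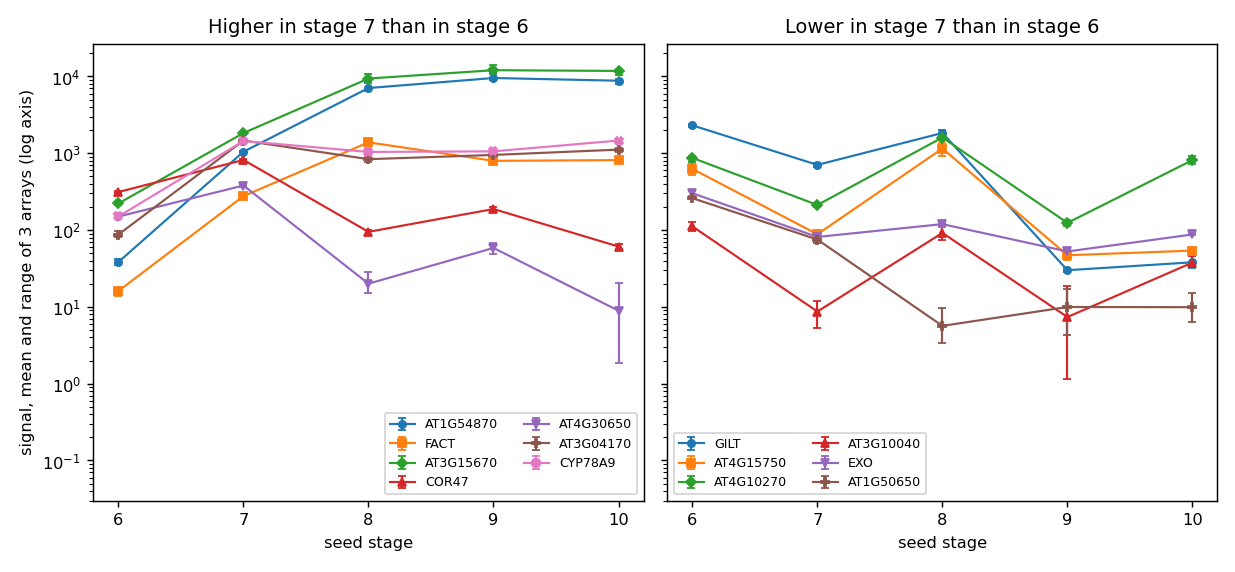
Mean signal on a log axis, with the range of 3 arrays as bars, over seed stages 6 to 10 for 7 genes called higher (left) and 6 called lower (right) in stage 7 than in stage 6. COR47 and AT4G30650 turn down after stage 7, and AT4G15750, GILT, AT4G10270 and AT3G10040 dip at stage 7 and stand at 1154, 1838, 1605 and 91.8 in stage 8.

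Across the 5 seed stages, the 411 probe sets called higher most often peaked late. The highest seed mean was in stage 10 for 143, in stage 9 for 126, in stage 8 for 42 and in stage 7 for 100. Of the 180 called lower, 151 had their highest seed mean in stage 6, and 29 had their lowest in stage 7, against 20 in stage 8, 79 in stage 9 and 52 in stage 10. These counts rest in part on the arrays that made the calls and are given as a description.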

How the data were processed

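The authors deposited 1 linear-scale intensity per probe set and array. MAS5 made these values, per the submitters' processing notes, in a version not given in the sources used here. In the deposited intensities the mean between the 2nd and 98th percentiles was 100.008 to 100.01 on each array, so each value is relative to the rest of its array. Precision is limited by the number of arrays. Of 22810 probe sets the 64 controls were dropped, and those above the array's 40th percentile on 3 or more of the arrays were tested. Differences of log2(signal + 7) were fitted in R 4.3.3 by limma 3.58.1 (tables read with version 1.17.8 of data.table), with 1 mean for each of the 8 groups over 24 arrays, 16 residual degrees of freedom, eBayes with a variance trend, and Benjamini-Hochberg adjustment over all 16967 tested probe sets. Control values were compared by exact permutation in scipy 1.17.1, where 3 arrays against 3 cannot go below p = 0.1. Python 3.11.15, pandas 2.3.3 and matplotlib 3.10.9 were used for summaries and figures. The fit was tested on simulated data.

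Replicates were named by the title letters, which are A, B and C in both stages compared. A single gene was annotated for 13513 probe sets, of which 13436 matched RefSeq gene records, while 503 had several genes and 8794 had none. Lists use the brightest probe set per gene. Genes were named by a rule: of the called, non-overlapping probe sets with a single gene, the 12 largest rises and 12 largest falls, the 6 highest and 6 lowest of those whose lower group mean was at least 50, the 3 highest and 3 lowest differences between steps, and up to 4 members of a list; other members and neighbouring pairs were named after their values were seen. The comparison, members and lists were chosen with earlier results of these data known. No sequences were used here, and a planned search of promoters was not run. No gene of the abscisic acid list had a probe set of its own in the annotation used, so that list was not tested. This is a limit of the annotation and does not show that the array lacks these genes.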

Additional observations from a re-analysis of the deposited data

Results flagged for a closer look

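The change to seeds stage 7 differed from the next change, to seeds stage 8, for 2965 probe sets in the contrast of both steps (limma, adjusted p under 0.05 and at least 2-fold). The named genes with the highest differences on the log2 scale were AT4G30650 at 5.18, AT3G04170 at 4.77 and COR47 at 4.39, and those with the lowest were AT4G15750 at -6.31, AT3G10040 at -5.59 and AT4G24110 at -5.34. AT3G04170 averaged 1467 ± 87.4 (SD, n = 3) in seeds stage 7 and 87.5 ± 8.36 in seeds stage 6, against 838 in seeds stage 8.

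The 25S ribosomal RNA control, outside the tested probe sets, stood at 1928 on array C of seeds stage 7 and at 2074 on array A of seeds stage 6, with 55.3 and 506 on the other arrays of stage 7 and 213 and 68.8 on those of stage 6. Without both arrays 546 of the 591 calls were kept among 647.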

How the results depend on the processing

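The call needs a 2-fold change, and the number added to each signal sets how many dim genes reach it. With 1 added in place of 7, 820 were called, 518 higher and 302 lower (63.2% higher in place of 69.5%), and with 28 added 332 were called, 272 higher and 60 lower, all 332 of them among the 591, with 81.9% of calls higher; the contrast of both steps then gave 1813. By the adjusted p alone 4151 passed, 1954 higher and 2197 lower, and at an adjusted p under 0.01 and 4-fold 84 passed, 80 higher and 4 lower. Without 1 array at a time the calls numbered 603 to 624, with 414 to 433 higher and 180 to 209 lower. The contrast of both steps gave 2839 to 3007 without 1 array at a time. The contrast was planned, but these runs of it were chosen after seeing the data. The other alternatives (no filter, a filter on 6 arrays, quantile normalization, centring on the 75th percentile or on the reference genes, 6 arrays alone, no variance trend, both arrays with a high 25S control left out) gave 536 to 647 calls. With the letter as a replicate block 591 were called, as without it, though such a block leaves each log2 change as it was. The 6 arrays alone and the fit without a variance trend also gave 591, and they too leave each log2 change as it was. Deviations of same-letter arrays correlated at 0.02 (A), 0.03 (B) and -0.05 (C), and those of different letters at -0.08 to 0.06. No deviation shared by letter was thus seen, but with 3 arrays a stage this cannot tell whether a letter marks a shared plant or batch. Of the 60 named probe sets that were called, 48 kept the call in every alternative run and 0 changed sign; of the 172 not called, 12 changed sign in at least 1 and 10 gained a call in at least 1, among them BGLU41, GH9C2, SCPL45, UGT72E1, UGT74D1 and UGT76C1. PDF1.2b, a defensin gene, lost its call (1.13) without array C of stage 7 (0.87), without array A of stage 6 (0.83) or without both (0.57), and TBL45 without array A of stage 7 (-0.90) or B of stage 6 (-0.98); the cause was not tested. Names are limited to probe sets with 1 annotated gene, dim signals carry no detection call, and 3 arrays a stage from plants of unstated separation limit what the p-values cover.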
